A study of Mus musculus with 2 samples.

Results

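The genes described here encode the subunits and receptor chains of the IL-12 family of cytokines: Il12a, Il12b, Il23a, Il27 and Ebi3 for the cytokines, and Il12rb1, Il12rb2 and Il23r for the receptors. These 8 genes were chosen by symbol from the 31053 genes listed in the deposited tables, and all 8 are described whatever their level. They were measured by single-cell RNA sequencing in skin of wild type C57BL/6 mice, with an age of 10 weeks in the labels, whose ears received imiquimod, an agonist of Toll-like receptor 7, on 5 consecutive days. Dermis and epidermis were sorted apart and gave 1 library each, with no untreated library analysed here, so every value describes imiquimod-treated skin and no test between samples was possible. The labels describe both sorts as live cells, while the study's methods state a sort for the leukocyte antigen CD45 in the dermis and for all live cells in the epidermis. The gated dermal cells nevertheless held 302 fibroblasts and 35 endothelial cells, so the difference in sorting cannot be told apart from the difference between layers.

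IL-12 family cytokines are heterodimers made by innate immune cells and built from shared parts. IL-12 pairs the Il12a and Il12b products, IL-23 pairs the Il23a and Il12b products, and IL-27 pairs the Il27 and Ebi3 products. Il12rb1 encodes the receptor chain that IL-12 and IL-23 have in common, Il12rb2 completes the IL-12 receptor and Il23r completes the IL-23 receptor. IL-12 is best known for driving interferon-gamma in T and natural killer cells, and IL-23 for sustaining T cells that make IL-17 and IL-22, the axis targeted by antibodies in psoriasis.

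The stretches upstream of 3 genes are shown as examples, a cytokine subunit and the receptor chains that complete the IL-12 and IL-23 receptors. RefSeq windows of GRCm38.p6 were matched for 5 of the 8 genes, and the 250 bases before the annotated start are given 5′ to 3′ on the strand of the gene. The windows lie at chr11:44399813-44400062 on the plus strand for Il12b, at chr6:67376189-67376438 on the minus strand for Il12rb2 and at chr6:67491856-67492105 on the minus strand for Il23r. Capitals mark matches on either strand to the letters searched.
Il12b: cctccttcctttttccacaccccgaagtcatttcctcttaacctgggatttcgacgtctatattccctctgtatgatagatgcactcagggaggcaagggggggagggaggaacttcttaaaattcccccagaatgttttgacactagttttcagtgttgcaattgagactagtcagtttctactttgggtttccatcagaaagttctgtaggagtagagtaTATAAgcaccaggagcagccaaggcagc
Il12rb2: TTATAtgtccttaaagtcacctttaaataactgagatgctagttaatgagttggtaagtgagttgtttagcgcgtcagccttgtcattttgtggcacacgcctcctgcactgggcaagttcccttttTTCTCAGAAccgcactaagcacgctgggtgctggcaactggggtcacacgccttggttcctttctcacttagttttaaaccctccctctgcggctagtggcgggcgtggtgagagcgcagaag
Il23r: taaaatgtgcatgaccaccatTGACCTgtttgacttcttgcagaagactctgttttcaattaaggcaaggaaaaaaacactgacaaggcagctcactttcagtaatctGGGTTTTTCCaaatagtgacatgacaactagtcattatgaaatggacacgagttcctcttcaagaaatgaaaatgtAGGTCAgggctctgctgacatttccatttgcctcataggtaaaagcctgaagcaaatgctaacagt
The letters searched were AGGTCA, an element bound by nuclear receptors, TTCNNNGAA for STAT factors, TATAA for the TATA box, TGANTCA for AP-1 and, for NF-kB, GGG and TTCC with 3 free bases between them. The Il12b window held TATAA from -28 to -24 bases of the start. The Il12rb2 window held the STAT letters from -123 to -115 and TATAA on the opposite strand from -250 to -246. The Il23r window held AGGTCA from -66 to -61 and, on the opposite strand, from -229 to -224, and the NF-kB letters from -142 to -133. Among 32851 mouse promoter windows, 14.0% held AGGTCA, 7.02% the STAT letters, 22.8% TATAA, 6.75% the AP-1 letters and 4.65% the NF-kB letters. The matches overlapped no other match and are descriptions of sequence only.

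The dermal library kept 4747 of 5376 barcodes with 40392866 unique molecular identifiers (UMIs) and a median of 7010 UMIs per cell, and the epidermal library kept 4173 of 5258 barcodes with 105033363 UMIs and a median of 25918. A kept cell had at least 200 genes and at most 10% mitochondrial UMIs. Cell classes were assigned per cell from lists of marker genes that contain none of the 8 genes, which placed 88.1% of the dermal and 91.2% of the epidermal cells. A keratinocyte was called basal unless it held a larger share of the suprabasal than of the basal markers. This left 2846 of 2970 as basal and 124 as suprabasal. An unsupervised keratinocyte cluster led by Krt10 and Krt1, the suprabasal keratins, had 230 cells. Basal is thus the name of a gate that can also hold other keratinocytes. At least 5 markers of the own list were detected in 50% or more of the dermal neutrophils, monocytes, macrophages, cDC2, Ccr7-high dendritic cells, basophils, fibroblasts and T cells and of the epidermal keratinocytes, Langerhans cells and T cells. Within dermal T cells the number was 6 of 6 for regulatory, 3 of 10 for γδ and 2 of 6 for αβ T cells. Within epidermal T cells it was 2 of 6 for dendritic epidermal T cells and 2 of 10 for other γδ T cells. Basal keratinocytes had 6 of 6 and suprabasal ones 4 of 7. The libraries had 45 barcodes in common, 0.837% of the dermal and 0.856% of the epidermal ones. Levels are UMIs of a gene per 1000000 UMIs of a class (CPM) with exact Poisson intervals at 95%, and shares of cells carry exact Clopper-Pearson intervals. All intervals and limits from a count of 0 cover counting error only. Fewer cells of a class and less RNA per cell cannot be told apart in the share of UMIs that a class contributes.

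The 8 genes were sparse, and they divided the libraries. In the dermis the kept cells held 694 UMIs of Ebi3, 345 of Il23a, 119 of Il12a, 103 of Il23r, 94 of Il12rb1, 63 of Il27, 37 of Il12rb2 and 29 of Il12b. In the epidermis they held 310 UMIs of Il12rb2, 165 of Il23a, 80 of Il12rb1, 71 of Ebi3, 14 of Il23r and 8 of Il12a. Neither Il12b nor Il27 had a UMI in the epidermis, where 0 of 4173 cells allows a share of up to 0.0719% and a level of up to 0.0286 CPM.

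**Figure D1:**
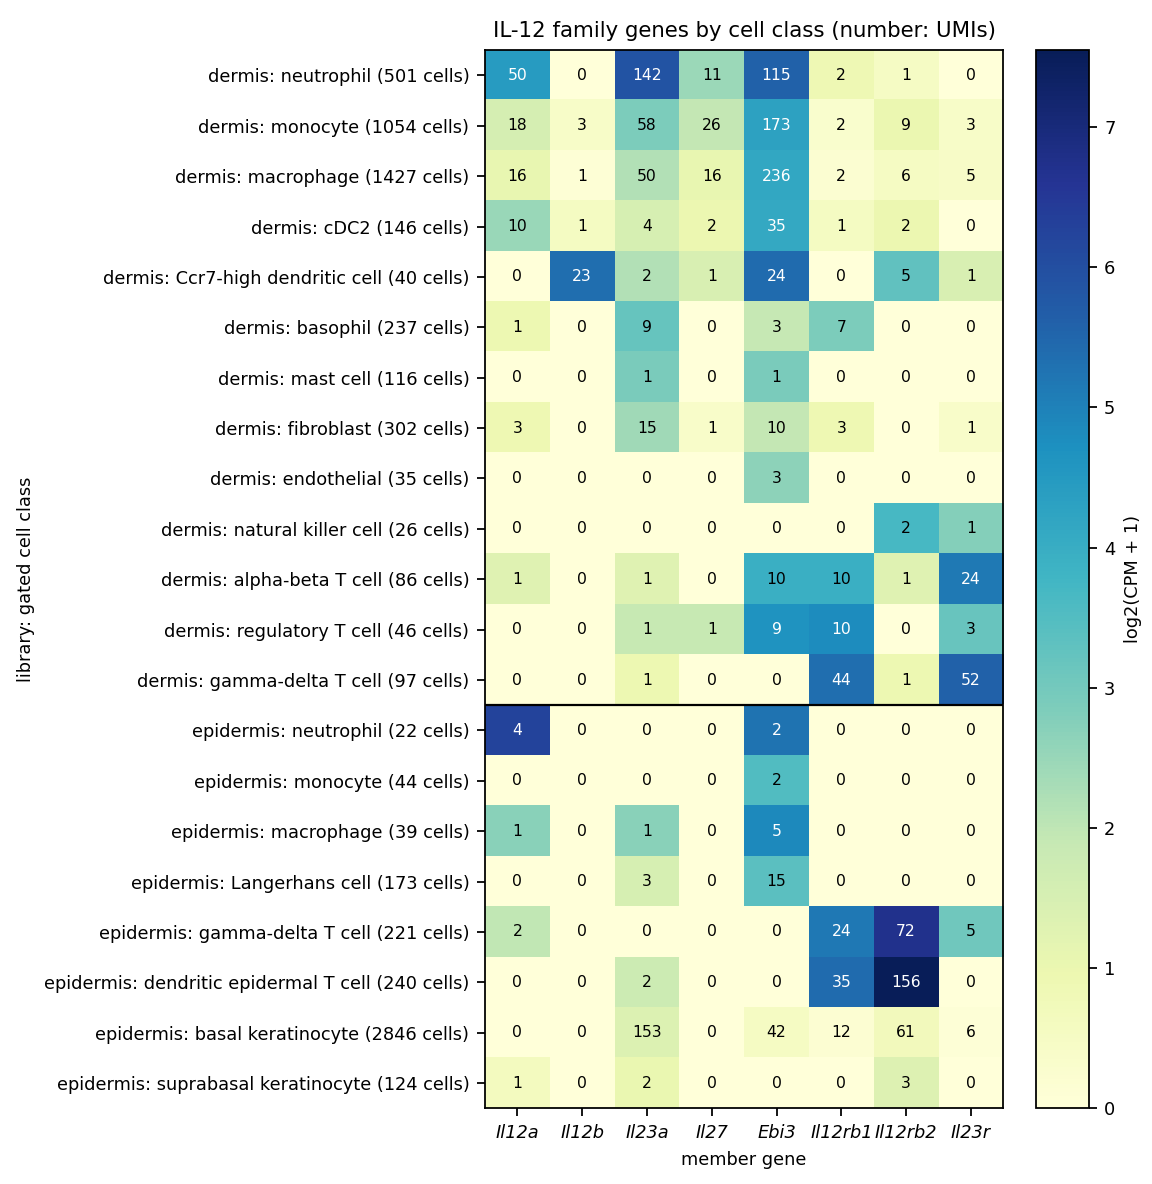
Level of each gene as log2(CPM + 1), in color, by gated cell class (y axis, with cells) and gene (x axis), with the UMI count printed in each field and a line between dermis and epidermis. Il23a and Il12a were highest in dermal neutrophils among classes with at least 20 cells and 10 UMIs, Il12b stood in Ccr7-high dendritic cells, and the receptor genes stood in T cells.

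Il23a, which encodes the subunit that makes IL-23 distinct from IL-12, was highest in dermal neutrophils among classes with at least 20 cells and 10 UMIs. Most of its epidermal UMIs lay in basal keratinocytes, which also held most UMIs of that library. The gene lies at chr10:128296139-128298752 on the minus strand. Dermal neutrophils held 142 UMIs in 68 of 501 cells, a level of 58.4 CPM (49.2 to 68.9) and 41.2% of the dermal UMIs. Of these cells 40 had 1 UMI, 10 had 2 and 18 had 3 or more, up to 7. Dermal monocytes held 58 UMIs at 6.29 CPM (4.78 to 8.13), and macrophages held 50 UMIs at 3.53 CPM (2.62 to 4.66). The neutrophil level was 9.29-fold that of monocytes (6.80 to 12.8) and 16.5-fold that of macrophages (11.9 to 23.3). Counted per 100 cells, neutrophils had 28.3 UMIs and monocytes 5.503, although the median neutrophil had 3908 UMIs in all and the median monocyte 8357.5. Behind the neutrophils the order among assigned dermal classes with at least 5 UMIs was basophils, with 9 UMIs at 8.20 CPM (3.75 to 15.6), then monocytes, fibroblasts, with 15 UMIs at 4.27 CPM (2.39 to 7.05), and macrophages. The intervals of neighbours in this order overlapped, while that of monocytes lay above that of macrophages. Unassigned dermal cells are outside this order. Those claimed by 2 classes held 37 UMIs at 14.8 CPM (10.4 to 20.4), up to 12 in a cell. Those of no class held 24 UMIs at 26.7 CPM (17.1 to 39.7).

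Il23a was scarce in the dermal dendritic cells, the class for which IL-23 is best known. Type 2 conventional dendritic cells (cDC2) held 4 UMIs in 146 cells at 1.86 CPM (0.507 to 4.77), and Ccr7-high dendritic cells held 2 UMIs in 40 cells at 3.49 CPM. The share of cells with a UMI was 13.6% in neutrophils (10.7 to 16.9), 3.51% in monocytes (2.48 to 4.81) and 1.15% in T cells (0.238 to 3.32), which are not known as a source of Il23a and had a median of 7142 UMIs. After thinning each cell to 1000 UMIs, a UMI remained in 18 of 488 neutrophils, 3.69% (2.20 to 5.77), and in 10 of 1049 monocytes, 0.953% (0.458 to 1.75), with 13 and 5 shallower cells left out.

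Neutrophil transcripts were also counted in other dermal classes, which bears on the low values there. Retnlg, a defining neutrophil gene, had a UMI in 68.9% of monocytes and 73.9% of macrophages. For every 1000 Retnlg UMIs there were 3.80 Il23a UMIs in neutrophils (3.198 to 4.478), 15.05 in monocytes (11.4 to 19.5), 11.8 in macrophages (8.72 to 15.5) and 7.51 in fibroblasts (4.20 to 12.4). It was 43.3 in basophils (19.5 to 83.7) and 15.7 in cDC2 (4.24 to 40.7). The ratio was higher in monocytes, macrophages and basophils than in neutrophils, while the intervals of fibroblasts and cDC2 met that of neutrophils. Retnlg is 1 of the 7 markers of the neutrophil gate, so gated neutrophils are selected for it, which can lower their ratio. The part of stray neutrophil RNA in the other classes was not tested. For Ebi3 the ratio was 3.08 in neutrophils (2.54 to 3.69), 44.9 in monocytes (38.3 to 52.3) and 55.5 in macrophages (48.5 to 63.3). For Il12a it was 1.34 in neutrophils (0.992 to 1.76), 4.67 in monocytes (2.77 to 7.39), 3.77 in macrophages (2.15 to 6.12) and 39.2 in cDC2 (18.6 to 73.3). Many gated neutrophils also carried monocyte or macrophage transcripts. In the 65 neutrophils with at most 1 marker of those classes the level was 83.5 CPM for Il23a (45.7 to 140), 65.6 for Ebi3 (32.8 to 117) and 35.8 for Il12a (13.1 to 77.9), the last beside 20.6 in all neutrophils.

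**Figure D2:**
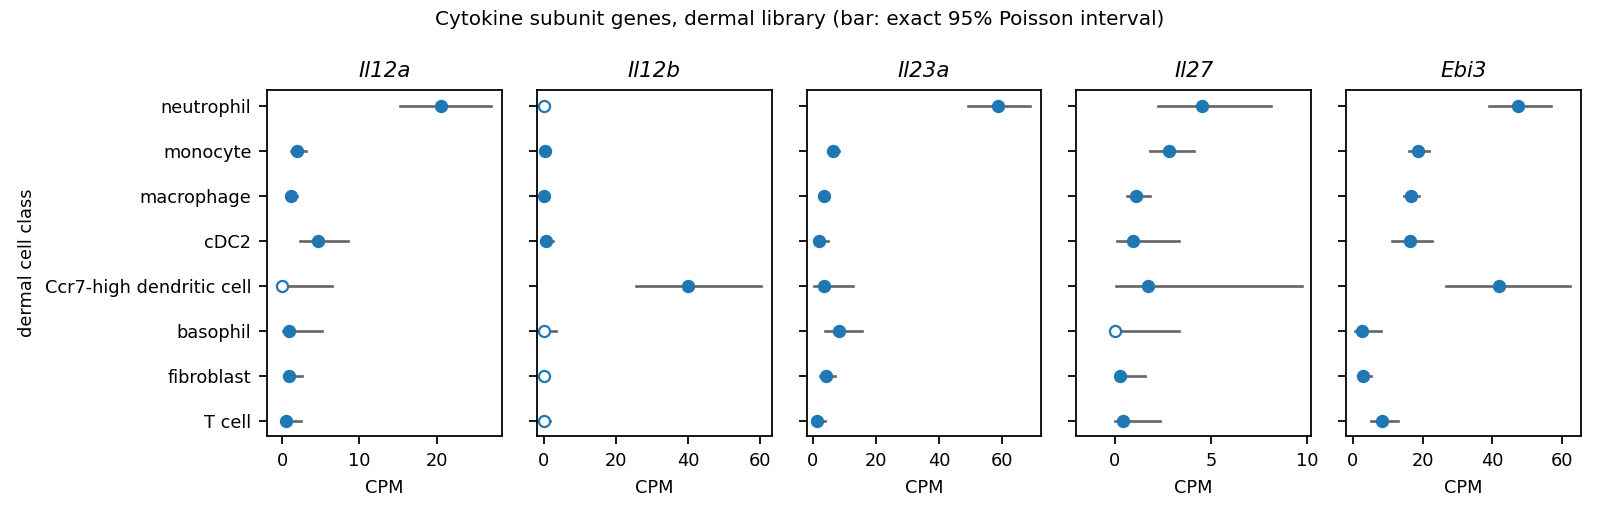
CPM (x axis) of the 5 cytokine subunit genes in 8 dermal cell classes (y axis), as points with exact 95% Poisson intervals and open points for 0 UMIs. Neutrophils lead for Il23a and Il12a, Ccr7-high dendritic cells for Il12b, and both stand above the other classes for Ebi3.

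In the epidermis the cells gated as basal keratinocytes held 153 of the 165 Il23a UMIs, in 125 of 2846 cells. They also held 96661231 of the 105033363 kept UMIs of that library, whose Il23a level as a whole was 1.57 CPM (1.34 to 1.83). Their level of 1.58 CPM (1.34 to 1.85) was low, and the level of dermal neutrophils was 36.9-fold higher (29.2 to 46.7). Their share of cells with a UMI was 4.39% (3.67 to 5.21) at a median of 33112 UMIs, and 3 of 2844 thinned cells, 0.105%, kept one. Langerhans cells, the dendritic cells of the epidermis, held 3 UMIs in 2 of 173 cells at 1.89 CPM (0.389 to 5.52). The 22 epidermal neutrophils held no UMI, which allows up to 56.1 CPM, a value inside the interval of the dermal neutrophils (49.2 to 68.9). On so few cells the neutrophils of the layers were not separated. Among unsupervised keratinocyte clusters Il23a ranged from 0.623 CPM (0.170 to 1.60) in a cluster led by Krt10 and Krt1, the suprabasal keratins, to 2.93 CPM (2.02 to 4.12, 33 UMIs) in a cluster led by Areg, an EGF receptor ligand, Stfa2 and Il24. A cluster of 31 cells led by Cst6 and Defb6 stood at 3.32 CPM on 2 UMIs.

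Il12b, whose product is needed for both IL-12 and IL-23, was counted in 9 cells, all in the dermis. The gene lies at chr11:44400063-44414033 on the plus strand, with its upstream window shown above. Of 29 UMIs, 23 were in 5 of the 40 Ccr7-high dendritic cells, which express the chemokine receptor of migration to lymph nodes. The 5 cells held 10, 6, 4, 2 and 1 UMIs, and the remaining 6 UMIs lay in 1 monocyte with 3 and in 1 macrophage, 1 cDC2 and 1 unassigned cell with 1 each. The level of Ccr7-high dendritic cells was 40.1 CPM (25.4 to 60.2), and it was 23.5 CPM without the richest cell. The other dendritic cells of the dermis held 1 UMI in 179 cells, a ratio of 108 (17.5 to 4449). No UMI was found in 501 neutrophils, which allows up to 1.23 CPM. The 10 Ccr7-high dendritic cells of the epidermis also held none, which allows up to 33.9 CPM.

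Il12a, which encodes the subunit specific to IL-12, was, like Il23a, led by dermal neutrophils among classes with at least 20 cells and 10 UMIs, and was unlike Il12b in this. The gene lies at chr3:68690644-68698547 on the plus strand. Dermal neutrophils held 50 of the 119 UMIs, in 36 cells, at 20.6 CPM (15.3 to 27.1), and cDC2 followed with 10 UMIs at 4.65 CPM (2.23 to 8.56). Monocytes held 18 UMIs at 1.95 CPM (1.16 to 3.08) and macrophages 16 at 1.13 CPM (0.646 to 1.84). Neutrophils were 4.42-fold above cDC2 (2.22 to 9.78) and 10.5-fold above monocytes (6.04 to 19.2), whereas the intervals of monocytes overlapped those of cDC2 and of macrophages. The 40 Ccr7-high dendritic cells held no Il12a UMI, which allows up to 5.23 CPM. In 6 cells gated as plasmacytoid dendritic cells, the specialised producers of type I interferon, 8 UMIs lay in 4 cells, at 120 CPM (52.0 to 237). The 22 epidermal neutrophils held 4 UMIs in 3 cells, at 74.8 CPM (20.4 to 192). Unlike Il23a, Il12a had 0 UMIs in the 2846 basal keratinocytes.

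Il27 and Ebi3 encode the subunits of IL-27, and Ebi3 was far more widely counted. Il27 lies at chr7:126589010-126594941 on the minus strand and overlaps the opposite-strand gene Apobr by 102 bases. Its 63 dermal UMIs lay in 61 cells: monocytes held 26 at 2.82 CPM (1.84 to 4.13), macrophages 16 at 1.13 CPM (0.646 to 1.84) and neutrophils 11 at 4.53 CPM (2.26 to 8.10). Neutrophils and monocytes were not separated, with a ratio of 1.61 (0.716 to 3.36), and monocytes were 2.49-fold above macrophages (1.29 to 4.98). An unsupervised cluster of 502 cells led by Chil3, Plac8 and Ly6c2, genes of recently arrived monocytes, held 20 UMIs at 4.46 CPM (2.73 to 6.89). Apobr itself stood at 59.7 CPM in neutrophils, 28.3 in monocytes and 13.9 in macrophages, and its part in the Il27 counts was not tested.

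Ebi3 lies at chr17:55952640-55957022 on the plus strand and had UMIs in 573 dermal cells. Neutrophils held 115 UMIs at 47.3 CPM (39.1 to 56.8) and Ccr7-high dendritic cells held 24 UMIs in 16 of 40 cells at 41.8 CPM (26.8 to 62.3). These 2 classes were not separated, with a ratio of 0.884 (0.544 to 1.38) for dendritic cells over neutrophils. Monocytes at 18.8 CPM (16.1 to 21.8), macrophages at 16.7 (14.6 to 18.9) and cDC2 at 16.3 (11.3 to 22.6) followed closely together. Ccr7-high dendritic cells were 2.62-fold above the other dendritic cells (1.52 to 4.42). In T cells Ebi3, which can also form IL-35 with Il12a in regulatory T cells, had 9 UMIs in 7 of 46 regulatory T cells at 23.9 CPM (10.9 to 45.3) and 10 in αβ T cells at 14.5 CPM (6.94 to 26.6), but 0 in 97 γδ T cells. In the epidermis Langerhans cells held 15 UMIs in 15 of 173 cells at 9.44 CPM (5.28 to 15.6), and basal keratinocytes held 42 at 0.435 CPM (0.313 to 0.587). The antisense gene Gm16712 overlaps Ebi3 and had at most 13 UMIs in any class examined.

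**Figure D3:**
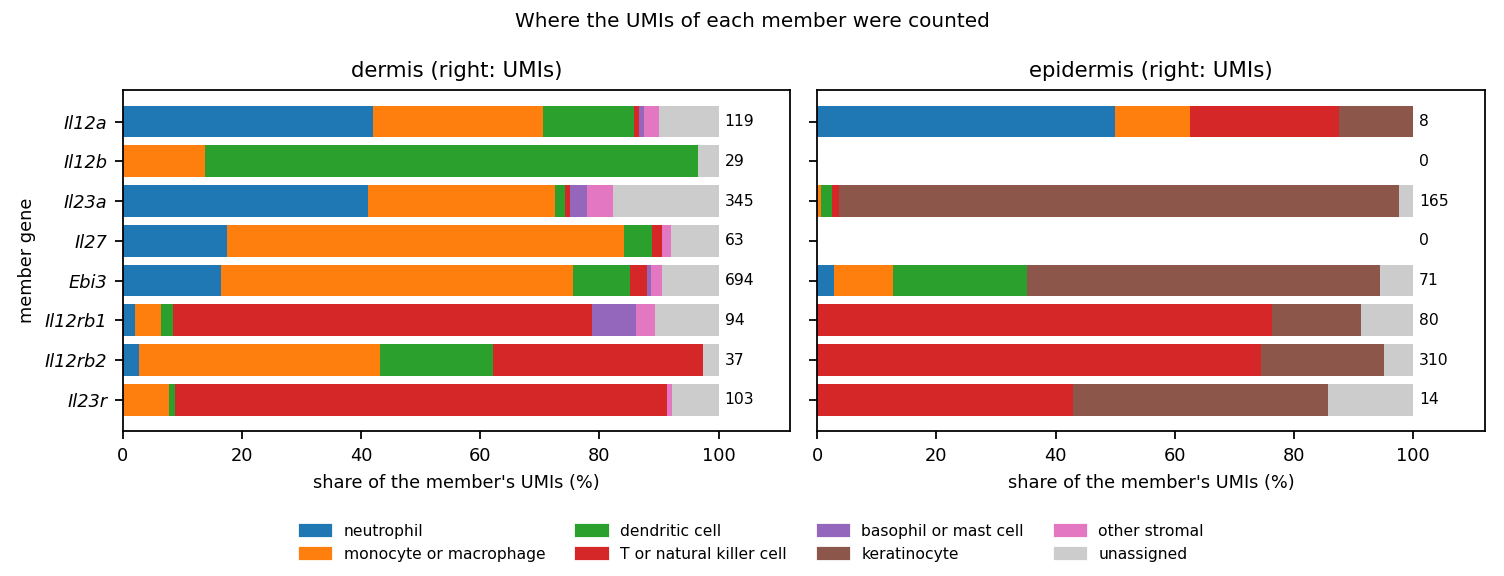
Share of each gene's kept UMIs (x axis, percent) by group of cell classes (colors), for the 8 genes (y axis) in dermis and epidermis, with the UMI total at the right of each bar. Cytokine genes drew most of their dermal UMIs from myeloid cells. Receptor genes drew most of theirs from T cells except Il12rb2 in the dermis and Il23r in the epidermis, where gated T cells and keratinocytes held 6 of 14 UMIs each. In the unsupervised clusters, 10 of these 14 UMIs lay in a T cell cluster led by Il22, Il17f and Il17a. Epidermal Il23a came mostly from keratinocytes, which also held most UMIs of that library.

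Few cells held UMIs of both subunits of the same cytokine. No cell held UMIs of both Il23a and Il12b, among 190 dermal cells with Il23a and 9 with Il12b, and none held both Il12a and Il12b, among 89 and 9. None of the 9 cells with Il12b had Il23a or Il12a, whereas 2 of them had Ebi3. Il27 and Ebi3 were found together in 11 dermal cells, 18.0% of the 61 with Il27 (9.36 to 29.98) and 1.92% of the 573 with Ebi3. Il12a and Ebi3 were found together in 16 cells, 18.0% of the 89 with Il12a (10.6 to 27.5) and 2.79% of those with Ebi3. Ebi3 had a UMI in 12.1% of all dermal cells, which lies within both intervals, and Il27 in 1.29%. At 1 to a few UMIs per cell a missing partner was not detectable at this depth, and after thinning to 1000 UMIs the Il27 and Ebi3 pair remained in 1 cell.

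The Ccr7-high dendritic cells were next compared with the other dermal dendritic cells over 7618 genes with at least 20 UMIs in both groups together. Of the 8 genes, 2 had enough UMIs, Il12b and Ebi3. Ebi3 was at least 2-fold higher, where 8.56% of all tested genes were as much higher and 22.4% as much lower. Il12b was also higher, but with 23 UMIs against 1 it reached the minimum only through the Ccr7-high cells. Its call was thus fixed by the minimum and is not weighed against that share. Of 8 kinase, STAT and SOCS genes that carry IL-12 family signals, 3 were at least 2-fold higher. Stat4, the main STAT of IL-12, stood at 78.4 against 7.80 CPM, a ratio of 10.1 (5.87 to 17.8), and Socs1, a feedback inhibitor, had a ratio of 2.23 (1.22 to 3.94). Socs3, an inhibitor of cytokine signals, was lower at 0.432 (0.293 to 0.617). Of 11 tested genes that act upstream of these cytokines, 5 were higher: the NF-kB subunits Relb at 6.43 (5.06 to 8.19), Nfkb2 at 2.44 (1.78 to 3.31) and Rel at 2.08 (1.58 to 2.71), the T cell help receptor Cd40 at 4.57 (3.28 to 6.37) and the dendritic cell factor Batf3 at 3.91 (3.07 to 4.97). Myd88, the adaptor of Toll-like receptors, was lower at 0.467 (0.275 to 0.750). The median log2 ratio was 0.83 for the signal genes and 0.72 for the upstream genes, beside -0.30 over all tested genes. Of 8 tested target genes of lymphocytes 0 were higher and 3 lower, Il17f, Il22 and Csf2, and the receptor partner Il6st was at 0.874 (0.355 to 1.88).

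Il23r and Il12rb2 differed between the T cells of the layers, whose makeup also differed. Il23r, at chr6:67422932-67491855 on the minus strand with its upstream window shown above, was a gene of dermal T cells. Dermal T cells held 84 of its 103 UMIs at 35.4 CPM (28.2 to 43.8), with 52 UMIs in 31 of 97 γδ T cells at 47.3 CPM (35.3 to 62.0) and 24 in 14 of 86 αβ T cells at 34.7 CPM (22.2 to 51.7). These neighbours overlapped, and regulatory T cells stood lower with 3 UMIs in 46 cells at 7.96 CPM (1.64 to 23.3), the γδ T cell level being 5.94-fold higher (1.92 to 29.7). The γδ gate asked for 2 of 10 markers, and the αβ gate, applied after it, for 1 of 6. Whether the αβ group includes γδ T cells that missed their gate was not tested. Epidermal T cells held 6 UMIs in 502 cells at 3.599 CPM (1.32 to 7.83), and the dermal level was 9.84-fold higher (4.34 to 27.6). The 240 dendritic epidermal T cells (DETC), the resident γδ T cells of mouse epidermis, held none, which allows a share of up to 1.25% and a level of up to 3.58 CPM. The share with a UMI was 19.2% of dermal T cells (14.6 to 24.5), 0.350% of macrophages (0.114 to 0.816) at a median of 8240 UMIs and 0 of 501 neutrophils. After thinning to 1000 UMIs it was 6 of 259 dermal T cells against 1 of 496 epidermal T cells, with 2 and 6 shallower cells left out.

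Il12rb2 had the opposite distribution. The gene lies at chr6:67291318-67376188 on the minus strand. Epidermal T cells held 231 of its 310 epidermal UMIs, in 162 of 502 cells, at 139 CPM (121 to 158), and dermal T cells held 11 at 4.64 CPM (2.31 to 8.29), so the epidermal level was 29.9-fold higher (16.4 to 60.7). DETC held 156 UMIs in 105 of 240 cells at 186 CPM (158 to 218), and the other epidermal γδ T cells held 72 UMIs in 54 of 221 cells at 104 CPM (81.8 to 132), a ratio of 1.78 (1.34 to 2.39). The DETC gate asked for 2 of 6 markers, and the median gated DETC had 2. The other γδ T cells were shallower, with a median of 2151 UMIs against 2554. Whether they include DETC that missed the gate was not tested. In the dermis 8 of the 11 T cell UMIs came from the 9 cells gated as DETC, at 76.2 CPM (32.9 to 150), and 97 other γδ T cells held 1. The share with a UMI was 32.3% of epidermal T cells (28.2 to 36.6) at a median of 2373.5 UMIs and 3.45% of dermal T cells (1.59 to 6.44) at 7142, and thinning to 1000 UMIs left 14.9% (11.9 to 18.4) and 0.772% (0.0937 to 2.76). Outside T cells, natural killer cells of the dermis held 2 UMIs in 26 cells at 11.6 CPM (1.41 to 42.0), and an unsupervised cluster of 40 cells led by Gzma, Ccl5 and Nkg7, genes of cytotoxic lymphocytes, held 5 at 19.5 CPM (6.34 to 45.5). Ccr7-high dendritic cells of the dermis held 5 UMIs in 4 of 40 cells at 8.72 CPM (2.83 to 20.3), and monocytes held 9 at 0.976 CPM (0.446 to 1.85).

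Basal keratinocytes held 61 Il12rb2 UMIs, a share of 2.04% (1.55 to 2.63) at a median of 33112 UMIs and a level of 0.631 CPM (0.483 to 0.811). For every 1000 UMIs of Cd3e, a T cell receptor component, they held 144 Il12rb2 UMIs (108 to 188), and epidermal T cells held 99.2 (86.3 to 114). Cd3e is also a marker of the T cell gate. For Il12rb1 the same ratios were 28.2 (14.5 to 49.8) and 26.2 (19.97 to 33.8). For Il12rb2 the ratio was higher in basal keratinocytes, and the separate intervals met only between 108 and 114. For Il12rb1 they overlapped more widely. Such overlap does not show that the ratios were equal. The part of stray T cell RNA in the keratinocyte counts was not tested. Among keratinocyte clusters Il12rb2 stood at 2.49 CPM (1.42 to 4.05) in the one led by Krt10 and Krt1 and at 1.72 CPM (1.02 to 2.72) in one led by Fabp5 and Them5, but at 0.296 CPM (0.109 to 0.644) in one led by Slc4a8, Thy1 and Postn. The cluster led by Krt10 and Krt1 held 16 Il12rb2 UMIs, while the cells gated as suprabasal held 3. Serbp1, which overlaps Il12rb2 on the opposite strand by 6418 bases, stood at 1148 CPM in basal keratinocytes and at 739 in DETC. Its part in the Il12rb2 counts was not tested.

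Il12rb1, the shared chain, was counted in T cells of both layers. The gene lies at chr8:70808449-70821424 on the plus strand. Dermal T cells held 66 of 94 UMIs in 53 of 261 cells at 27.8 CPM (21.5 to 35.4), and epidermal T cells held 61 of 80 in 58 of 502 cells at 36.6 CPM (28.0 to 47.0). The dermal over epidermal ratio of 0.760 (0.529 to 1.09) included 1. The levels were 41.8 CPM in DETC (29.1 to 58.1), 40.0 in dermal γδ T cells (29.1 to 53.7) and 34.8 in other epidermal γδ T cells (22.3 to 51.8). Regulatory T cells stood at 26.5 (12.7 to 48.8) and dermal αβ T cells at 14.5 (6.94 to 26.6). Each interval overlapped the next in this order, but that of dermal αβ T cells lay below those of DETC and dermal γδ T cells. Basophils, at 7 UMIs and 6.37 CPM (2.56 to 13.1), were the highest class other than T cells with at least 5 UMIs.

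Over the 9175 genes tested between dermal and epidermal T cells, 4 of the 8 genes had enough UMIs. Il23r and Ebi3 were at least 2-fold higher in the dermis, where 8.98% of all tested genes were, and Il12rb2 was at least 2-fold lower there, as were 22.2%. Il23r, Ebi3 and Il12rb2 each held fewer than 20 UMIs in the layer where they were lower. They entered the comparison through the other layer, so their calls cannot be weighed against these shares. Ebi3 had 20 UMIs in dermal T cells and 0 in epidermal ones, which makes the dermal level at least 4.68-fold higher. The makeup of the T cells differed between layers, since 240 of 502 epidermal T cells and 9 of 261 dermal T cells were gated as DETC. Among γδ T cells, DETC included, that held no Il17a or Il17f, the epidermal level of Il12rb2 was 4.40-fold higher (2.10 to 11.1). In the same groups the dermal level of Il23r was 21.8-fold higher (3.90 to 221), on 6 UMIs against 2. Of the 240 epidermal and 9 dermal DETC, 1 and 2 held Il17a or Il17f, so most DETC stayed in these groups. The share of DETC thus cannot be told apart from the layer in these 2 ratios. Among γδ T cells that held Il17a or Il17f, Il23r stood at 45.2 CPM in the dermis (33.1 to 60.3) and, on 3 UMIs, at 18.2 CPM in the epidermis (3.76 to 53.3), and the ratio of 2.48 (0.797 to 12.46) included 1. Il12rb2 was 12.4-fold higher in the epidermal ones (1.77 to 137), on 4 UMIs in 2 of 26 cells against 2 UMIs in 2 of 81 cells.

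**Figure D4:**
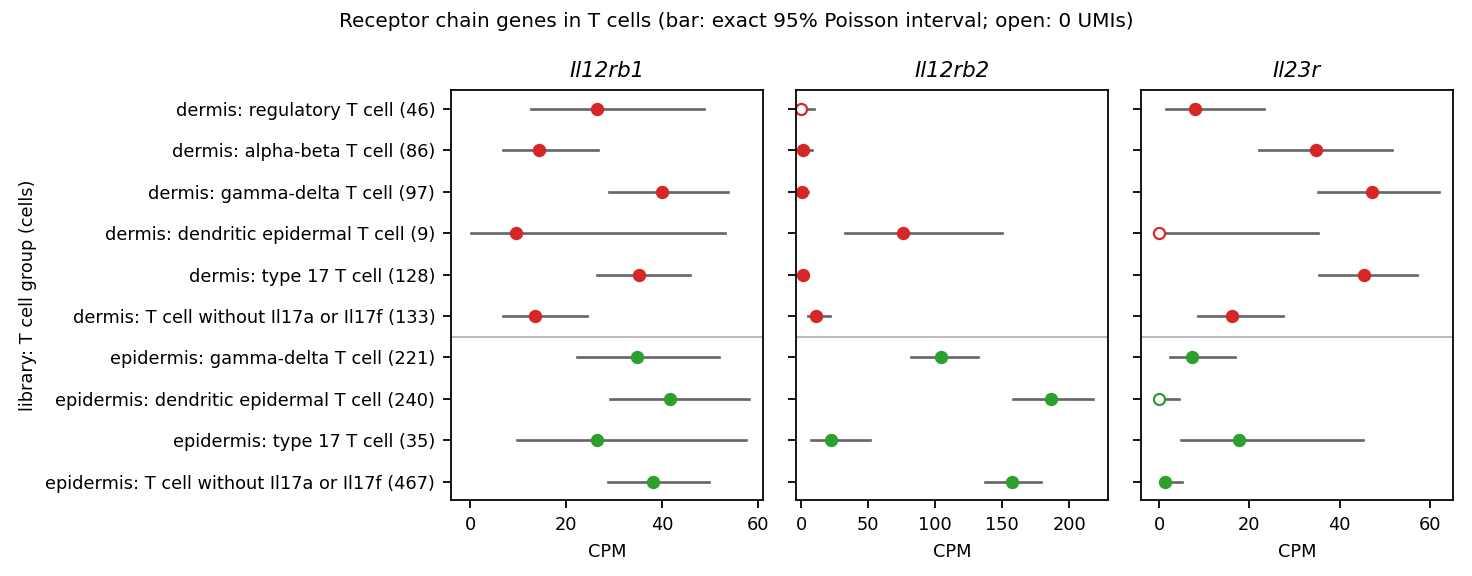
CPM (x axis) of the 3 receptor genes in T cell groups (y axis, with cells) of dermis (red) and epidermis (green), as points with exact 95% Poisson intervals and open points for 0 UMIs. Il12rb2 is highest in epidermal dendritic epidermal T cells, Il23r in dermal γδ and type 17 T cells, and Il12rb1 is present in both layers.

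Receptor chains were also counted in pairs in single cells. Il12rb1 and Il23r were found together in 21 dermal cells, 26.9% of the 78 with Il12rb1 (17.5 to 38.2) and 32.3% of the 65 with Il23r (21.2 to 45.1), and 19 of these were T cells. Il12rb1 and Il12rb2 were found together in 1 dermal cell. In the epidermis that pair was found in 30 cells, 39.5% of the 76 with Il12rb1 and 12.9% of the 232 with Il12rb2, while Il12rb1 and Il23r were found together in 2 cells. Il12rb2 and Il23r were found together in 0 dermal cells and in 1 epidermal cell. In dermal T cells, Il23r was held by 35.8% of the 53 cells with Il12rb1 (23.1 to 50.2) and by 19.2% of all 261. Within the dermal T cells that held Il17a or Il17f, these shares were 38.1% of 42 (23.6 to 54.4) and 31.25% of all 128. Within dermal γδ T cells, DETC included, they were 37.1% of 35 (21.5 to 55.1) and 29.2% of all 106. In these narrower groups the share of all cells lay within the interval. In epidermal T cells, Il12rb2 was held by 46.6% of the 58 cells with Il12rb1 (33.3 to 60.1) and by 32.3% of all 502. Il12rb2 was in 9 dermal T cells and Il23r in 5 epidermal ones, too few to tell whether these 2 genes lie in separate cells. Clusters made without the 8 genes held Il23r and Il12rb2 in unequal amounts within the epidermis as well as between the layers. A dermal cluster of 141 cells led by Il17f, Il22 and Il17a held 82 UMIs of Il23r, 63 of Il12rb1 and 1 of Il12rb2. An epidermal cluster of 472 cells led by Cd3g, Cd7 and Trdc held 226 UMIs of Il12rb2, 55 of Il12rb1 and 0 of Il23r. A further epidermal cluster of 52 cells led by Il22, Il17f and Il17a held 1 UMI of Il12rb2, 9 of Il12rb1 and 10 of Il23r. In these Il17-led clusters Il23r stood at 45.7 CPM in the dermis (36.4 to 56.7) and at 27.1 CPM in the epidermis (13.01 to 49.9), and the intervals overlapped.

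T cells with at least 1 UMI of Il17a or Il17f, called type 17 T cells here, were compared with the T cells that had none. In the dermis 128 cells stood against 133, with median depths of 10178.5 and 4919 UMIs. Il23r had 71 against 13 UMIs, a CPM ratio of 2.82 (1.55 to 5.56), and Il12rb1 had 55 against 11, a ratio of 2.58 (1.34 to 5.48). Ebi3 had 4 against 16 UMIs and was 7.74-fold lower (2.50 to 31.8). Thus 2 of 3 tested genes were at least 2-fold higher, as were 3.74% of 7027 genes, and 1 was lower, as were 8.31%. Each of the 3 held fewer than 20 UMIs in the group where it was lower, so these calls cannot be weighed against the shares. Il12rb2 had 2 against 9 UMIs, too few to enter the comparison. The makeup of the groups differed, since 81 of the 128 type 17 T cells and 25 of the 133 others were γδ T cells, DETC included, and the others also held regulatory T cells. Within the dermal γδ T cells Il23r stood at 45.2 CPM with Il17a or Il17f and at 32.0 CPM (11.8 to 69.7) without, a ratio of 1.41 (0.601 to 4.04). For Il12rb1 these levels were 40.3 CPM (28.9 to 54.6) and 21.3 CPM (5.82 to 54.7), a ratio of 1.89 (0.683 to 7.25), so that both ratios included 1. Il23r also did not differ beyond counting error between type 17 γδ T cells at 45.2 CPM (33.1 to 60.3) and other type 17 T cells at 45.7 CPM (29.6 to 67.5), with a ratio of 0.988 (0.594 to 1.68). The other type 17 T cells are those outside the γδ and DETC gates, and γδ T cells among them were not tested for. The dermal cluster led by Il17f, Il22, Il17a and Trdc held 82 of the 103 dermal Il23r UMIs. A T cell cluster with Trac among its leading genes held 10. Il17a or Il17f UMIs also occurred in 14.9% of macrophages and 11.4% of neutrophils, with a median of 1 UMI in those cells against 9.5 in the T cells that had any. The part of such stray UMIs in the type 17 group was not tested.

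Il17a and Il17f define the type 17 group and are left out of the counts of target genes. Of the 11 other tested target and partner genes of responding lymphocytes, 4 were at least 2-fold higher in dermal type 17 T cells and 0 lower. These counts are a description, since the makeup of the groups differed. Il22 had a ratio of 7.86 (7.16 to 8.65), Csf2, which encodes GM-CSF, one of 6.35 (3.68 to 11.9) and Il1r1, the IL-1 receptor, one of 3.01 (1.57 to 6.32). Of 8 signal genes 0 were higher and 3 were lower, among them Jak2 at 0.289 (0.156 to 0.521) and Stat4 at 0.488 (0.236 to 1.004). The Stat4 interval included 1. Over all tested genes 3.74% were at least 2-fold higher and 8.31% as much lower. Of 9 tested upstream genes 0 were higher and 1 lower, Irf4 at 0.470 (0.243 to 0.902), and of the receptor partners Il6st was lower at 0.186 (0.0764 to 0.412). The median log2 ratio was 0.72 for these target genes and -0.84 for the signal genes, beside -0.12 over all tested genes.

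In the epidermis 35 type 17 T cells stood against 467 others, with median depths of 6224 and 2328 UMIs. Il12rb2 had 5 against 226 UMIs and was 7.12-fold lower (3.01 to 22.2), and Il12rb1 had 6 against 55, a ratio of 0.692 (0.244 to 1.61). Of these 2 tested genes 0 were at least 2-fold higher, where 4.45% of 7015 genes were, and 1 was lower, where 26.9% were. The lower gene, Il12rb2, reached the minimum only through the T cells without Il17a or Il17f. Il23r had 4 against 2 UMIs, a ratio of 12.7 (1.82 to 140), below the UMI minimum. The makeup of the groups differed, since 1 of the 240 DETC held Il17a or Il17f and the rest stood among the others. DETC held Il12rb2 at 186 CPM (158 to 218) and 0 UMIs of Il23r. The share of DETC thus cannot be told apart from holding Il17a or Il17f in the Il12rb2 and Il23r ratios. Of the 13 listed target genes other than Il17a and Il17f, 6 had enough UMIs, and all 6 were at least 2-fold higher. Among them were Il22 at 370 (260 to 546), the chemokine receptor Ccr6 at 88.8 (28.4 to 448) and Rora at 4.76 (2.94 to 7.65). A gene could reach the minimum through the type 17 T cells alone, so this count is a description. The share of DETC cannot be told apart from holding Il17a or Il17f in these ratios either. Of 5 tested signal genes 1 was higher, Socs3 at 2.43 (1.33 to 4.26), of 6 upstream genes 2 were, Nfkb2 at 3.17 (1.70 to 5.73) and Nfkb1 at 2.23 (1.36 to 3.57), and 0 of either were lower. Il6st was lower at 0.167 (0.00412 to 0.988). Il17a or Il17f UMIs occurred in 6.97% of epidermal T cells and in 6.36% of basal keratinocytes, with a median of 19 and 1 UMIs in the cells that had any.

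Genes with the most similar distribution were named by the correlation of log2(CPM + 10) over 14 class and library groups of at least 50 cells, among 12545 genes. These groups share their library and depth, and the correlations are descriptions. Il23a was closest to Ankrd33b, with a Pearson r of 0.98, and to Il1a, which encodes an IL-1 cytokine. Il12a was closest to Dhrs9 at 0.94 and to Ltf, a neutrophil granule gene. Il27 was closest to Treml4 at 0.98 and Ebi3 to Sirpb1b at 0.92 and Cd80, a costimulatory ligand. Il12rb1 was closest to Ly6g5b at 0.991 and, among its first 3, to Cd3d, a gene used in the T cell gate. Il12rb2 was closest to Orm3 at 0.998 and Il23r to 1700012B07Rik at 0.998 and Ikzf3, a lymphocyte transcription factor. With 1 in place of 10 added to CPM, the 3 closest genes had 0 in common for Il12a, 1 for Ebi3, Il12rb2 and Il23r, and 2 for Il23a, Il27 and Il12rb1.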

How the data were processed

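The deposited matrices hold raw UMI counts per gene and barcode, which the authors made from 10x Chromium 3′ v3 libraries with CASAVA and Cell Ranger on mm10, per the submitters' processing notes and a matrix header naming version 3.0.2. The study's methods state that sorting excluded doublets. Doublets were kept, and removing the highest Scrublet scores at 0.8% per 1000 cells was an alternative. Intervals came from scipy 1.17.1, in Python 3.11.15 with pandas 2.3.3 and numpy 2.4.6. Clusters, made without the 8 genes, came from scanpy 1.11.5 and leidenalg 0.10.2. Cells needed a minimum number of markers of a class. The share of markers needed a margin of 10 percentage points over any class of another group that also met its minimum. Dendritic cells, macrophages and monocytes formed a group, as did T and natural killer cells, with no margin inside a group. In the former group, a cell that met the minimum of a dendritic class joined such a class, whatever its macrophage or monocyte share. Thinning drew UMIs without replacement. Ratios used exact conditional intervals, and a 0 was read as allowing 3 counts. Group comparisons used genes with at least 20 UMIs, and called means at least 2-fold. All 8 genes are named, with fixed pathway lists and the 3 most similar genes of each with at least 50 UMIs. Members and lists were chosen with earlier results of these data known, and gate minimums, the margin and the minimum of 20 cells and 10 UMIs for a leading class were set after counts were seen. The ratio calculation was tested on simulated data. Gene positions are from GENCODE release 21. Figures used matplotlib 3.10.9. Values of 2 genes of the fixed pathway lists are not reported here, although the lists' counts and medians include them.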

Additional observations from a re-analysis of the deposited data

Results flagged for a closer look

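Some UMIs of these genes lay in barcodes that failed the cell filter and entered no comparison. In the 629 such dermal barcodes there were 4 UMIs of Il12a, 8 of Il23a and 7 of Ebi3, at 4.62, 9.25 and 8.09 CPM. In the 1085 such epidermal barcodes there were 17 UMIs of Il23a and 9 of Il12rb2, at 4.55 and 2.41 CPM. Each count is above the 3 that a 0 allows.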

How the results depend on the processing

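No paired analysis was possible because the layers gave a single library apiece. The alternatives were the study's filter, no filter, removal of the highest doublet scores, unsupervised clusters, a stricter gate, leaving out the richest cell, mean per-cell CPM, thinning, a higher UMI minimum and a stricter type 17 call. No direction was reversed. Of the values that answer a comparison, 62 stayed within their spread and 14 moved. With clusters the neutrophil share of dermal Il23a UMIs was 55.1% in place of 41.2%, and the T cell share of dermal Il23r UMIs 89.3% in place of 81.6%. With the study's limits on genes and mitochondrial UMIs the epidermal T cell share was 85.5% for Il12rb1 and 82.4% for Il12rb2, in place of 76.2% and 74.5%. Thinning to 1000 UMIs left 1 dermal cell with Il12rb1 and Il23r, 6 epidermal cells with Il12rb1 and Il12rb2, 1 with Il27 and Ebi3 and 1 with Il12a and Ebi3. With a minimum of 50 UMIs, fewer genes were tested and fewer were past 2-fold, higher and lower: 362 and 1041 in place of 652 and 1709 for Ccr7-high dendritic cells, 119 and 223 in place of 263 and 584 for dermal type 17 T cells, and 151 and 935 in place of 312 and 1890 for epidermal ones. Of the other values 91 stayed and 21 moved, 3 of these in the neutrophils with few monocyte or macrophage markers, an alternative chosen after seeing the data. With 1 library per layer and no untreated skin, neither the spread between animals nor the effect of imiquimod could be measured.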

Other observations

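The receptor of IL-27, which pairs the Il27ra and Il6st products, was also counted. Il27ra had 53 UMIs in dermal T cells at 22.3 CPM (16.7 to 29.2) and 13 in epidermal T cells at 7.80 CPM (4.15 to 13.3). Monocytes and macrophages of the dermis had 4 and 9 UMIs of Il27ra, at 0.434 and 0.636 CPM. Il6st, the signal chain of the IL-6 family, stood at 110 CPM in fibroblasts (99.6 to 122) and 143 in endothelial cells (113 to 177), and at 14.3 in dermal T cells (9.92 to 20.02).

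The 26 dermal natural killer cells, which respond to IL-12, held 79 UMIs of Ifng at 459 CPM (364 to 572), 14 of Stat4 at 81.4 CPM (44.5 to 137) and 9 of Tbx21, the factor of type 1 immunity, at 52.3 CPM (23.9 to 99.3). Dermal T cells held 22 UMIs of Ifng at 9.27 CPM (5.81 to 14.0). Tlr7, which senses imiquimod, had 133 UMIs in dermal monocytes at 14.4 CPM (12.1 to 17.1), 169 in macrophages at 11.9 CPM (10.2 to 13.9) and 23 in neutrophils at 9.46 CPM (6.00 to 14.2).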
